A study of Mus musculus with 15 samples.

Results

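The nuclear respiratory chain genes are the protein-coding genes of the deposited count table whose symbols start with Nduf (complex I), equal Sdha to Sdhd (complex II), start with Uqcr (complex III), start with Cox4 to Cox8 (complex IV) or start with Atp5 (complex V). The rule uses symbols and no measured value. The rule found 93 of 46078 genes: 46 of complex I, of which 38 are subunits or subunit isoforms and 8 are assembly factors (Ndufaf1 to Ndufaf8), 4 of complex II, 8 of complex III, 18 of complex IV and 17 of complex V. Another 11 pseudogenes and noncoding genes with symbols of this kind were left out.

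Bulk mRNA sequencing was done on the podocyte fraction of male C57BL/6J mice, 1 library per mouse. Podocytes are the epithelial cells that cover the glomerular capillaries, and the fraction was pulled from digested kidney cortex with magnetic beads and antibodies to nephrin, a podocyte surface protein. Young mice were 4 months old and uninjected (5 libraries used). Aged mice were 21 months old and were injected intraperitoneally once a week for 8 weeks, at 12 mg/kg by the growth protocol, with the isotype control antibody IgG2a (clone 2A3; 4 libraries used) or with the anti-mouse PD-1 antibody RMP1-14 (aPD1ab; 4 libraries used). The sample titles of the aPD1ab group give 47 days, which differs from those 8 weeks. Every aged mouse was injected and no young mouse was, so age and injection cannot be told apart in a comparison with the young mice. The aged IgG2a libraries serve in both comparisons that involve them, and the young libraries likewise, so the comparisons below share samples.

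The respiratory chain sits in the inner mitochondrial membrane. Complex I takes electrons from NADH and complex II, which is also an enzyme of the TCA cycle, takes them from succinate. Complex III passes them to cytochrome c, complex IV hands them to oxygen, and complex V uses the proton gradient built on the way to make ATP. Most subunits are encoded in the nucleus and a few core subunits of complexes I, III, IV and V in mitochondrial DNA. In the kidney, the proximal tubule is known for very dense mitochondria, while podocytes carry fewer.

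The libraries held between 19912969 and 32717100 counts, so that 3 counts stood for 0.0917 to 0.151 CPM (counts per 1000000 counts). All 12 podocyte markers, nephrin (Nphs1) among them, were detected in every library, with a summed level of 929 to 1506 CPM in young, 552 to 740 in aged IgG2a and 284 to 901 in aged aPD1ab libraries. Markers of other kidney cells were also present: 20 proximal tubule markers summed to 15560 to 23330 CPM in young libraries, so the fraction was not made of podocytes alone. Aged IgG2a replicate 1 stood apart from the rest of its group on the first principal component (at -16.4, against 71.6 to 84.2 for replicates 2 to 4), and counts and levels of the chain genes in comparisons with the aged IgG2a group are therefore given with and without it. Among the aged aPD1ab libraries, replicate 2 lay away from the others (at -64.9, against -13.9 to 10.9). In bulk RNA of this kind, fewer cells of a type and less RNA per cell cannot be told apart.

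Promoters of the chain genes are known for short motifs of a few general transcription factors, among them NRF1 and GABPA. RefSeq promoter windows (GRCm38.p6, 250 bases before to 50 after the start) were matched for 76 of the 93 genes. The NRF1 motif GCGCATGC, read on both strands, lay in the windows of 12 of the 76 (15.8%), against 3.01% of 26949 other genes and 3.89% of the 17416 of them that code for proteins. The GABPA motif CCGGAAG lay in 18 (23.7%, against 9.89% and 12.9%), the YY1 motif AAGATGGCG in 8 (10.5%, against 1.61% and 2.1%) and the CREB motif TGACGTCA in 4 (5.26%, against 2.02% and 2.53%). At least 1 of these motifs was found in 34 of the 76 windows (44.7%), against 15% of other genes and 19.3% of other coding genes. By complex, a motif was found for 18 of 40 matched genes of complex I, 2 of 3 of II, 4 of 5 of III, 3 of 13 of IV and 7 of 15 of V. Stretches from 6 windows are shown because they place these motifs in each complex, in genes described below, and because Atp5g2, whose level took another course than that of most chain genes, carries the same NRF1 letters as Cox6a1. Capitals mark the motifs (GABPA in Uqcrh, NRF1 and then GABPA in Atp5l, NRF1 in the others), every stretch is read 5′ to 3′ on the strand of its gene, and a palindromic run GCGCATGCGC holds the NRF1 letters on both strands. A match describes letters only and is not a binding site.
Ndufa6 (complex I, chr15:82354331-82354410, minus strand): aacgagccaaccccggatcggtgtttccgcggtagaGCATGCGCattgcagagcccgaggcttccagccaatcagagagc
Sdhb (complex II, chr4:140961181-140961260, plus strand): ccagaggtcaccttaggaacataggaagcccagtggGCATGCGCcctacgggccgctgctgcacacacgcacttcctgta
Uqcrh (complex III, chr4:116075071-116075150, minus strand): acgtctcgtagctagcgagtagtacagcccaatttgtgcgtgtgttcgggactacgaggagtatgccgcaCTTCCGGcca
Cox6a1 (complex IV, chr5:115349077-115349156, minus strand): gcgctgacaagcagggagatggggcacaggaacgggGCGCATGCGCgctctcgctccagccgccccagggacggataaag
Atp5l (complex V, chr9:44920913-44920992, minus strand): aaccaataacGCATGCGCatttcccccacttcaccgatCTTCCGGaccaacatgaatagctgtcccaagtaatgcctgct
Atp5g2 (complex V, chr15:102671048-102671127, minus strand): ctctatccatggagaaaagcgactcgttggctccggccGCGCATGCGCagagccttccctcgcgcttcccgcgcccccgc

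Levels of different genes were compared only per transcript length, as TPM (transcripts per 1000000 transcripts). In young libraries the highest were the catalytic beta and alpha subunits of ATP synthase, Atp5b at 1796 ± 182 and Atp5a1 at 1023 ± 109 TPM (mean ± SD, n = 5). Cox4i1, the ubiquitous form of complex IV subunit 4, followed at 856 ± 76.7 TPM and Atp5g3, which encodes the ring subunit c of ATP synthase, at 835 ± 48.7 TPM; these 2 did not differ beyond their spread. Ndufa4, a small subunit named for complex I and later assigned to complex IV, led the Nduf genes at 785 ± 81.5 TPM. Complex III was led by the hinge protein Uqcrh at 691 ± 72.3 TPM, and complex II by its flavoprotein Sdha at 381 ± 42.8 TPM. Among forms known as tissue-restricted or hypoxia-linked, low levels were those of Ndufa4l2 at 6.51 ± 1.13, Cox4i2 at 2.04 ± 1.12 and Cox6a2 at 0.841 ± 0.138 TPM. The complex I subunit gene Ndufb2 was also low, at 6.40 ± 1.03 TPM. It shares 4022 bases with Gm42420 on the same strand, and the part of this in its level was not tested. The order depends on the length used. With union exon lengths, chosen after seeing the data, Atp5a1 (1100.0 TPM) was above Atp5b (1064), Cox8a (778) and Cox6a1 (715) were above Cox4i1 (547), Uqcr10 (481) was above Uqcrh (347) and Ndufa1 led the Nduf genes (379), while Sdha (352) still led complex II. Cox7b2, Cox8b and Cox8c had 0 counts in all 13 libraries, which allows up to 0.0917 to 0.151 CPM.

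The 5 complexes took the same course from library to library. The summed level of the complex I genes was 3070, 2929, 3393, 3183 and 2998 CPM in young libraries, 3896, 2068, 2101 and 2188 in aged IgG2a libraries and 3828, 4897, 4378 and 4079 in aged aPD1ab libraries. For complex V the sums were 5259, 5010, 5945, 5719 and 5172 CPM in young, 6647, 3378, 3410 and 3529 in aged IgG2a and 6193, 7674, 6455 and 6620 in aged aPD1ab libraries. Aged IgG2a replicates 2 to 4 were lowest for all 5 complexes and close to each other, whereas aged IgG2a replicate 1 lay above every young library. Complex II held 1003 to 1143 CPM in young libraries, 1296 in aged IgG2a replicate 1, 648.2 to 662.7 in the other 3, and 1130 to 1435 in aged aPD1ab libraries. Complex III held 1171 to 1351, 1538, 800.3 to 821 and 1484 to 1924 CPM, and complex IV 1739 to 1936, 2379, 1352 to 1400.0 and 2448 to 2975 CPM, in the same order. The aged aPD1ab libraries were above every young library in the sums of complexes I, III, IV and V, and overlapped them in complex II.

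**Figure D1:**
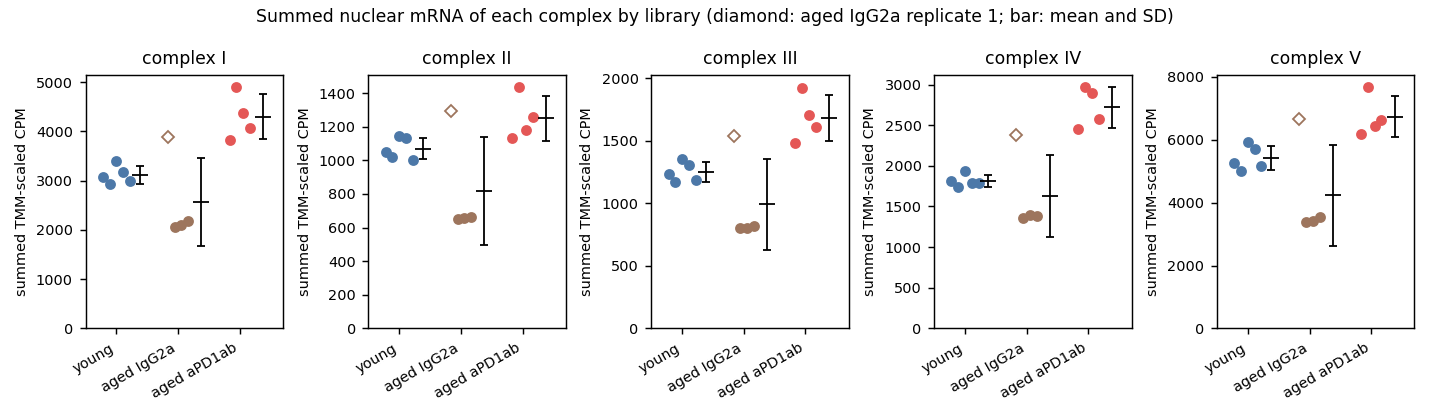
Summed level of the nuclear members of each complex in every library (TMM-scaled CPM, axes from 0) for young, aged IgG2a and aged aPD1ab mice, with bars for the mean and SD and a diamond for aged IgG2a replicate 1. In all 5 panels aged IgG2a replicates 2 to 4 lie below every young library, and replicate 1 lies above.

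As shares of all counts, the 93 genes took 1.31 to 1.52% in young libraries, 1.64% in aged IgG2a replicate 1, 0.606 to 0.762% in aged IgG2a replicates 2 to 4 and 1.47 to 1.88% in aged aPD1ab libraries. The 13 mitochondrially encoded subunits were higher in the libraries with the lowest nuclear share, at 22.8 to 29.9% in young libraries, 28.6% in aged IgG2a replicate 1, 38.2 to 54.2% in replicates 2 to 4 and 19.9 to 37.8% in aged aPD1ab libraries. Of these 13, 10 were higher in aged IgG2a than in young mice at an edgeR adjusted p under 0.05 (13 without aged IgG2a replicate 1), where 9.05% of all genes were higher (22.1% without it). Levels in CPM below use TMM scaling, which is set by the bulk of the genes and not by the total.

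The first comparison, aged IgG2a against young, asks what differs in the aged podocyte fraction without PD-1 blockade. Over all 4 aged IgG2a libraries, 2 chain genes passed edgeR's quasi-likelihood test at a Benjamini-Hochberg adjusted p under 0.05. Cox7a2l, a paralog of the complex IV gene Cox7a2, rose. Ndufa4l2, a paralog of Ndufa4 known as a target of hypoxia-inducible factor, fell. That is 1 of 89 genes tested higher, where 9.05% of all 15953 genes were, and 1 of 89 lower, where 8.38% of all genes were. The median log2 fold change was -0.19, beside 0.04 over all genes. Of 89 estimates 79 were negative, where 53.7% of all genes had a positive estimate. No chain gene rose over 2-fold, where 3.89% of all genes did, and Ndufa4l2 alone fell over 2-fold, where 4.59% did. Without aged IgG2a replicate 1, 74 of 89 chain genes fell and Cox7a2l alone rose, where 23.5% of all 16216 genes fell and 22.1% rose. The median was then -0.47, beside -0.01 over all genes. That 1 library decides the count. Limma voom with sample quality weights, which gave replicate 1 a weight of 0.120, called 70 chain genes lower (22.2% of all genes) and 1 higher (24.3%). DESeq2 called 1 lower (13.6%) and 1 higher (14.3%), and a single edgeR fit of all 3 groups 1 lower (7.61%) and 0 higher (6.36%). Aged IgG2a replicate 1 was above the other 3 aged IgG2a libraries in 87 of 90 chain genes and above every young library in 81 of 90. The shares over all genes were not counted for these 2 values. Replicate 1 also stood apart over all genes, on the first principal component. Aged IgG2a replicates 2 to 4 lay below every young library in 77 of 89 chain genes, against 27.4% of all genes, and all 4 aged IgG2a libraries did so in 1 of 89, against 9.74%. They lay above every young library in 1 of 89 (4.75% of all genes), the same count as for replicates 2 to 4 (19.4%).

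By complex and without aged IgG2a replicate 1, the genes that fell were 39 of 46 in complex I, all 4 in complex II, all 8 in complex III, 8 of 14 tested in complex IV and 15 of 17 in complex V. The medians were -0.47, -0.59, -0.57, -0.40 and -0.47 on the log2 scale. The summed level of complex II in aged IgG2a replicates 2 to 4 was 61.4% of the young level and that of complex IV 76.1%, with complexes V (63.6%), III (64.8%) and I (68.1%) between them. With replicate 1 included these shares were 72.8% for complex II, 87.3% for IV, 74.9% for V, 76.15% for III and 79.3% for I. In complex IV the 5 genes tested that did not pass in either direction were Cox5a, Cox5b, Cox6b2, Cox7a1 and Cox8a, which left Cox4i1, Cox6a1, Cox6b1, Cox6c, Cox7a2, Cox7b, Cox7c and Cox4i2 lower. Of these, Cox4i2 passed the filter on low counts only through the young libraries, where it was higher, so its call is no support for a fall. In complex V, the c-ring gene Atp5g2 and the coupling factor gene Atp5s did not pass. Both of the catalytic subunits Atp5a1 and Atp5b fell.

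Among catalytic subunits, Ndufs1, the largest iron-sulfur subunit of complex I, stood at 151, 156, 189, 181 and 158 CPM in young, 184, 80.8, 94.0 and 98.1 in aged IgG2a and 157, 182, 169 and 158 in aged aPD1ab libraries. Aged IgG2a replicates 2 to 4 were below all other libraries, and the young and aged aPD1ab libraries overlapped. Against young, the log2 fold change of Ndufs1 was -0.49 (SE 0.22, edgeR adjusted p = 0.133), and -0.82 (SE 0.11, edgeR adjusted p = 0.000179) without aged IgG2a replicate 1. The flavoprotein Ndufv1, which binds NADH, gave -0.40 with replicate 1 and -0.71 without it. Sdha, which oxidises succinate, stood at 557, 556, 612, 615 and 524 CPM in young, 651, 316, 327 and 335 in aged IgG2a and 549, 659.9, 535 and 573 in aged aPD1ab libraries. Its log2 fold change was -0.44 (SE 0.22, edgeR adjusted p = 0.183), and -0.76 (SE 0.10, edgeR adjusted p = 0.000238) without replicate 1. The iron-sulfur subunit Sdhb and the membrane anchors Sdhc and Sdhd fell by 0.51, 0.67 and 0.45 on the log2 scale without that library, and with it were at -0.19, -0.35 and -0.16, which did not pass. In complex III, the Rieske protein Uqcrfs1 and the core protein Uqcrc1 fell by 0.69 and 0.54 without it, and Uqcrc2, the other core protein, by 0.84 (edgeR adjusted p = 7.3e-05). With it the 3 were at -0.37, -0.29 and -0.50, and none passed.

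Atp5b was at 1703, 1619, 1996, 1909 and 1701 CPM in young libraries, at 2069, 979, 1009 and 1029 in aged IgG2a and at 1932, 2363, 1744 and 1928 in aged aPD1ab libraries. Aged IgG2a replicates 2 to 4 were below every other library, and replicate 1 was above all young libraries. The log2 fold change against young was -0.44 (SE 0.25, edgeR adjusted p = 0.231) over 4 libraries and -0.77 (SE 0.13, edgeR adjusted p = 0.000761) over 3. Atp5a1 gave -0.36 and -0.67 in the same fits.

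The second comparison, aged aPD1ab against aged IgG2a, asks what PD-1 blockade goes with at the same age. Over all libraries no gene passed: 0 of 89 chain genes and 0 of 15530 genes (0%) had an edgeR adjusted p under 0.05. The lowest adjusted p was 0.109 among chain genes and 0.102 among all genes. At an unadjusted p under 0.05, 77 of the 89 chain genes and 4341 of all 15530 genes were past it in either direction. The 77 were all higher with aPD1ab, and the share of all genes higher at this p was not counted. DESeq2 called 56 chain genes higher (8.95% of all genes), limma voom with sample quality weights 83 (20.9%) and the edgeR fit of all 3 groups 65 (11.4%). None of these 3 called a chain gene lower, where they called 6.33%, 18.8% and 6.14% of all genes lower. The median log2 fold change was 0.74, beside -0.01 over all genes. All 89 estimates were positive, where 49.1% of all genes had a positive estimate. Without aged IgG2a replicate 1, 83 of 89 chain genes rose and 0 fell, where 17.1% of all 15770 genes rose and 13.2% fell, and the median was 1.00, beside 0.01 over all genes. In the edgeR fits that left out another library, 0 chain genes and 0% of all genes passed. The lowest edgeR adjusted p over all genes was 0.0986 to 0.285 in those fits.

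Without aged IgG2a replicate 1, genes rose in every complex: 43 of 46 in complex I, all 4 in II, all 8 in III, 12 of 14 in IV and 16 of 17 in V. The summed levels in aged aPD1ab libraries were 2.02 times those of aged IgG2a replicates 2 to 4 in complex I, 1.90 in II, 2.07 in III, 1.97 in IV and 1.95 in V. With replicate 1 these ratios were 1.73, 1.60, 1.76, 1.72 and 1.66. The 6 genes that did not pass were Ndufa4l2, Ndufaf2, Ndufb2, Cox6a2, Cox7a2l and Atp5s. Every aged aPD1ab library was above aged IgG2a replicates 2 to 4 in 85 of 89 chain genes, against 24.8% of all genes, and above all 4 aged IgG2a libraries in 31 of 89, against 7.25%. In 0 of 89 were the aged aPD1ab libraries all below the 4 aged IgG2a libraries (4.73% of all genes) or below replicates 2 to 4 (18.5%).

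Without replicate 1 the largest log2 fold changes were those of Uqcr10, Ndufs6, Atp5g3 and Ndufaf6 (1.24). Uqcr10, a small subunit of complex III, stood at 104, 101, 119, 121 and 112 CPM in young, 145, 72.5, 71.2 and 69.7 in aged IgG2a and 141, 226, 187 and 188 in aged aPD1ab libraries. Aged IgG2a replicates 2 to 4 lay lowest and 3 of the 4 aged aPD1ab libraries were above every other library. Its log2 fold change against aged IgG2a was 1.05 (SE 0.27, edgeR adjusted p = 0.109), and 1.36 (SE 0.18, edgeR adjusted p = 0.00641) without replicate 1. Ndufs6, an accessory subunit of the NADH-oxidising arm, was at 41.3, 41.1, 50.6, 46.1 and 44.2 CPM in young, 52.4, 28.7, 27.4 and 30.2 in aged IgG2a and 57.9, 85.3, 73.2 and 69.3 in aged aPD1ab libraries. Here the 4 aged aPD1ab libraries were above all others. The log2 fold change of Ndufs6 was 1.04 (SE 0.23, edgeR adjusted p = 0.109) and 1.29 (SE 0.16, edgeR adjusted p = 0.00640) without replicate 1. Cox6a1, the general form of complex IV subunit 6a, gave 0.96 and 1.23, Ndufa6 gave 0.90 and 1.09, and the ring subunit gene Atp5g3 gave 0.94 and 1.26. The large catalytic subunits had smaller values in the fit without replicate 1: Sdha 0.81, Ndufs1 0.85, Atp5a1 0.89 and Atp5b 0.96. With it these were 0.51, 0.54, 0.60 and 0.65.

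The third comparison, aged aPD1ab against young, does not rest on the aged IgG2a libraries. Here 67 of 90 chain genes rose and 2 fell, where 12.4% of all 15986 genes rose and 9.97% fell. Over 2-fold, 2 of 90 were called higher, Cox6b2 and Cox6a2 (2.1% of all genes), and 1 lower, Cox4i2 (2.69%). Cox6a2 and Cox4i2 passed the filter on low counts only through the group where they were higher, so their calls are no support for a change. Without the filter 0 chain genes were called lower. The median log2 fold change was 0.50, beside 0.02 over all genes. The genes that rose were 32 of 46 in complex I, 3 of 4 in II, 6 of 8 in III, 14 of 15 in IV and 12 of 17 in V. All 4 aged aPD1ab libraries were above all 5 young libraries in 68 of 90 chain genes, against 11.3% of all genes, and below them in 2 of 90, against 10.6%. Leaving out any 1 library left between 56 and 69 genes higher, with 63 without aged aPD1ab replicate 2. The shares of all genes called higher in these fits were not counted. At an unadjusted edgeR p under 0.05, in either direction, 5115 to 6124 of all genes were past it there. A single fit of all 3 groups called 32 higher and 1 lower, where 9.13% and 8.64% of all genes were called. The summed levels were 150% of the young level in complex IV, 137.5% in I, 134% in III, 124% in V and 117% in II.

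**Figure D2:**
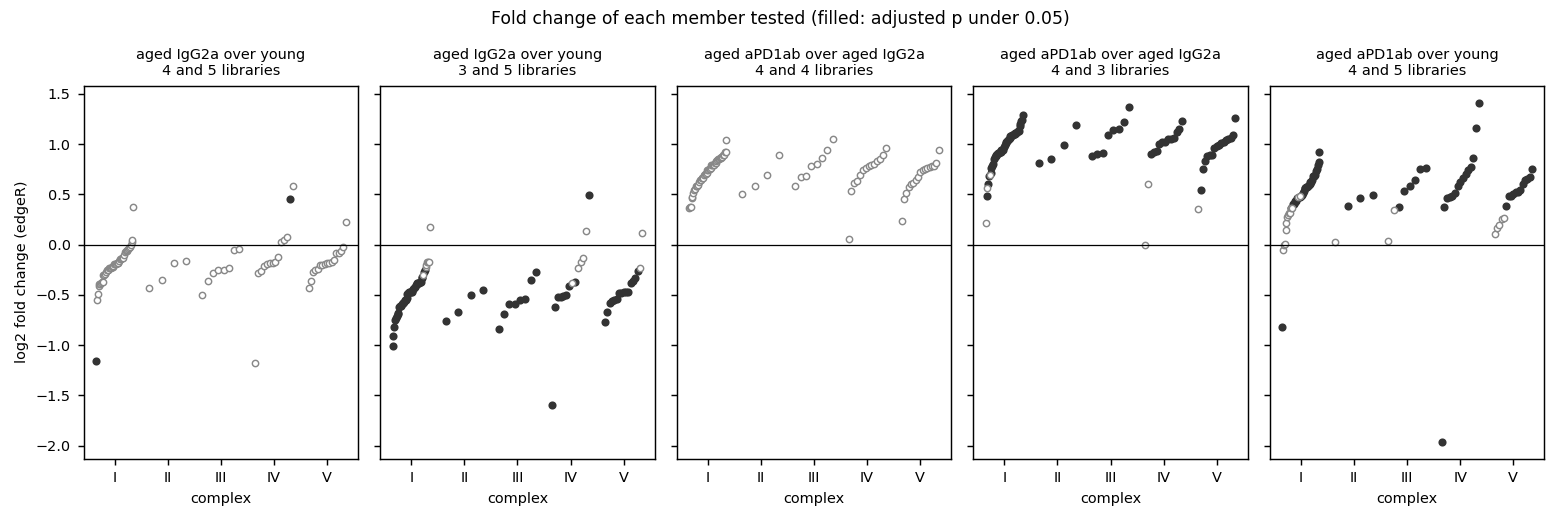
Log2 fold change of each chain gene tested (points, in order of size within a complex; filled where the edgeR adjusted p was under 0.05) for aged IgG2a over young and aged aPD1ab over aged IgG2a, each with and without aged IgG2a replicate 1, and for aged aPD1ab over young. Without aged IgG2a replicate 1 the medians of all members were -0.47 for the first comparison and 1.00 for the second, and the median was 0.50 for the third.

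The genes that did not rise over young included the large catalytic subunits. Ndufs1 had a log2 fold change of 0.0030 (SE 0.11, edgeR adjusted p = 0.987), Sdha of 0.027 (SE 0.12, edgeR adjusted p = 0.897) and Uqcrc2 of 0.040 (SE 0.12, edgeR adjusted p = 0.835). Atp5b gave 0.17 (SE 0.15) and Atp5a1 0.20 (SE 0.14), neither past the test, as also for Ndufv1 (0.31) and Uqcrc1 (0.35). Of the catalytic subunits named, the Rieske protein Uqcrfs1 (0.38, SE 0.11, edgeR adjusted p = 0.0382) and Sdhb (0.47, SE 0.11, edgeR adjusted p = 0.0149) rose. The call of Uqcrfs1 held without aged aPD1ab replicate 1 and was lost without any other 1 library (0.31 to 0.40), and that of Sdhb was kept in all of these fits. Cox5a, a subunit on the matrix side of complex IV, was at 38.4, 35.5, 39.7, 32.4 and 41.2 CPM in young, 52.5, 31.1, 36.3 and 28.3 in aged IgG2a and 67.7, 67.4, 61.4 and 73.1 in aged aPD1ab libraries. All 4 aged aPD1ab libraries were above all other libraries, and the young and aged IgG2a ranges overlapped. It rose by 0.86 (SE 0.098, edgeR adjusted p = 0.00264) on the log2 scale over young.

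Cox8a, a small membrane-spanning subunit of complex IV, stood at 219, 183, 187, 165 and 203 CPM in young, 277, 142, 169 and 159 in aged IgG2a and 295, 335, 323 and 320.0 in aged aPD1ab libraries, again with the aged aPD1ab libraries above all others. Its log2 fold change over young was 0.75 (SE 0.11, edgeR adjusted p = 0.00387). In complex I, Ndufa6 rose by 0.69 and Ndufb9 by 0.63, and both are accessory subunits of the LYR motif family. Uqcrh in complex III rose by 0.58, Cox4i1 by 0.62 and Atp5l, a subunit of the membrane part of ATP synthase, by 0.60. Ndufa4 missed the threshold (0.36, SE 0.12, edgeR adjusted p = 0.0586).

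The fold change over young went with transcript length. Among chain genes with a median transcript under 800 bases, the median log2 fold change was 0.60 (48 genes), between 800 and 1600 bases it was 0.40 (27 genes) and over 1600 bases it was 0.20 (15 genes). The same held over all genes, with 0.53 for 1294 genes under 800 bases, 0.32 between and -0.07 for 11746 genes over 1600 bases. Across genes, Spearman's rho of fold change and length was -0.61 over 90 chain genes and -0.49 over 15926 genes (genes are not independent replicates). In aged aPD1ab against aged IgG2a without replicate 1, the medians of the chain genes were 1.03, 0.92 and 0.91 in these classes, where all genes had 0.07, 0.23 and -0.05. With replicate 1 the chain genes were at 0.79, 0.66 and 0.60, and all genes at 0.13, 0.19 and -0.07. In aged IgG2a against young without replicate 1, the chain genes were at -0.42, -0.48 and -0.67 and all genes at 0.32, 0.06 and -0.04. With replicate 1 these were -0.18, -0.19 and -0.36, and 0.31, 0.10 and 0.0060. Short transcripts were thus higher in both aged groups than in young over all genes, and the part of this in the chain genes' values was not tested.

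**Figure D3:**
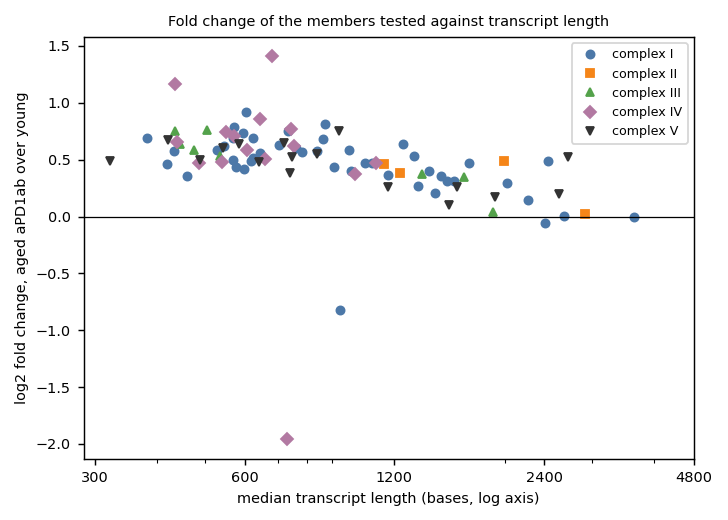
Log2 fold change of aged aPD1ab over young (vertical axis) against median transcript length in bases (log axis) for the 90 chain genes tested, with a marker for each complex. The values fall from a median of 0.60 under 800 bases to 0.20 over 1600 bases, and the 2 points far below 0 are Ndufa4l2 and Cox4i2.

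The 8 assembly factors of complex I, which build the enzyme and are not part of it, were counted apart. Their summed level was 98.0 to 118 CPM in young libraries, 124 in aged IgG2a replicate 1, 72.3 to 76.0 in aged IgG2a replicates 2 to 4 and 116 to 147 in aged aPD1ab libraries. In aged IgG2a against young, 0 of 8 fell and 1 of 38 subunits did (8.38% of all genes). Without replicate 1, 4 of 8 fell (Ndufaf1, Ndufaf4, Ndufaf6 and Ndufaf7), and 35 of 38 subunits did (23.5% of all genes). Over young, 2 of 8 rose with aPD1ab (Ndufaf3 and Ndufaf8), and 30 of 38 subunits did (12.4% of all genes). Ndufaf8 was at 7.84, 6.53, 4.56, 4.97 and 9.29 CPM in young, 11.2, 6.58, 8.83 and 6.22 in aged IgG2a and 12.9, 11.3, 12.7 and 13.04 in aged aPD1ab libraries. The 4 aged aPD1ab libraries were above all others, by a log2 fold change of 0.92 over young (SE 0.20, edgeR adjusted p = 0.0107). Ndufaf4 had the opposite place in the list: it fell by 0.91 in aged IgG2a against young without replicate 1 (SE 0.16, edgeR adjusted p = 0.000969) and was at -0.55 with it (edgeR adjusted p = 0.140), and its value over young with aPD1ab was -0.0048 (SE 0.15).

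Genes of the chain outside the rule were compared as 2 further lists. The first held 4 tested genes for cytochrome c and for proteins of complexes III and V with other symbols, and Minos1, which is a subunit of the cristae-organising MICOS complex and is not counted here. Of the 4, 3 rose over young with aPD1ab, where 12.4% of all genes rose. They were the ATP synthase subunit Usmg5 (0.60), the ATP synthase inhibitor Atpif1 (0.66) and cytochrome c1 (Cyc1, 0.40). Somatic cytochrome c (Cycs), the carrier between complexes III and IV, did not pass (0.33, edgeR adjusted p = 0.104). Without replicate 1, all 4 fell in aged IgG2a against young (23.5% of all genes), Cycs by 0.93 and Cyc1 by 0.63. With that library 0 did (8.38% of all genes). Of 38 tested assembly factors with other symbols, 12 rose and 0 fell over young with aPD1ab (median 0.21). Of all genes, 12.4% rose and 9.97% fell there. Among those that rose were Uqcc2 for complex III (0.73), Cox14 and Coa6 for complex IV (0.70 and 0.76) and Sdhaf1 for complex II (0.75). Without replicate 1, 15 of 38 fell in aged IgG2a against young (median -0.26), where 23.5% of all genes fell. Ecsit of complex I was at -0.90 and Tmem70 at -0.69. With that library Acad9 alone fell, by 0.47, where 8.38% of all genes fell.

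Several subunits exist as paralogs, and these did not all follow the chain. Cox7a2l (ENSMUSG00000024248, GRCm38 chromosome 17, 83501918 to 83517330, minus strand) was at 100.0, 105, 92.2, 100.3 and 115 CPM in young, 121, 138, 153 and 125 in aged IgG2a and 127, 127, 179 and 130.1 in aged aPD1ab libraries. All 8 aged libraries were above all 5 young libraries, and the aged groups overlapped. It rose by 0.45 in aged IgG2a (SE 0.11, edgeR adjusted p = 0.0285), by 0.49 without replicate 1 (SE 0.098, edgeR adjusted p = 0.00228) and by 0.47 with aPD1ab over young (SE 0.12, edgeR adjusted p = 0.0231). The last call was lost without young replicate 1, 2, 3 or 4 (0.43 to 0.47). Over all 4 aged IgG2a libraries that call was lost without young replicate 1, 2, 3 or 4 or without aged IgG2a replicate 2, 3 or 4 (log2 fold changes of 0.38 to 0.47). Between the aged groups its log2 fold change was 0.055 (SE 0.17), and -0.0033 (SE 0.16) without replicate 1. Its paralog Cox7a2, a subunit of complex IV itself, stood at 128, 124, 143, 139 and 121 CPM in young, 167, 78.5, 86.1 and 82.2 in aged IgG2a and 169, 203, 199.8 and 168 in aged aPD1ab libraries. In TPM, Cox7a2l was at 47.2 ± 7.08% of Cox7a2 in young libraries (SD, n = 5), at 101 ± 8.63% in aged IgG2a replicates 2 to 4 (n = 3), at 86.2 ± 29.6% with replicate 1 (n = 4) and at 45.5 ± 6.69% in aged aPD1ab libraries (n = 4). The muscle form Cox7a1 stayed at 6.70 to 7.99% of Cox7a2 in these groups.

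The 3 genes Atp5g1, Atp5g2 and Atp5g3 encode the same mature subunit c of ATP synthase behind different import sequences. Atp5g3 was at 315, 296, 342, 307 and 299 CPM in young, 411, 194, 208 and 198 in aged IgG2a and 394, 551, 504 and 492 in aged aPD1ab libraries, the course of most chain genes. Atp5g2 (ENSMUSG00000062683) was at 76.7, 72.0, 75.6, 81.9 and 73.4 CPM in young, 104, 83.0, 76.6 and 77.6 in aged IgG2a and 109, 126, 127 and 109 in aged aPD1ab libraries. Unlike Atp5g3, it overlapped between young and aged IgG2a replicates 2 to 4. With replicate 1 the log2 fold changes were 0.23 for Atp5g2 and -0.25 for Atp5g3, and neither passed. Atp5g2 had a log2 fold change of 0.11 (SE 0.077, edgeR adjusted p = 0.249) without replicate 1, where Atp5g3 fell by 0.58 (SE 0.092, edgeR adjusted p = 0.000543). Over young with aPD1ab, Atp5g2 rose by 0.64 and Atp5g3 by 0.65. Of the summed TPM of the 3 genes, Atp5g2 made 21.0 ± 1.12% in young (n = 5), 27.9 ± 4.52% in aged IgG2a (n = 4), 30.04 ± 1.62% in its replicates 2 to 4 (n = 3) and 21.1 ± 1.51% in aged aPD1ab libraries (n = 4).

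**Figure D4:**
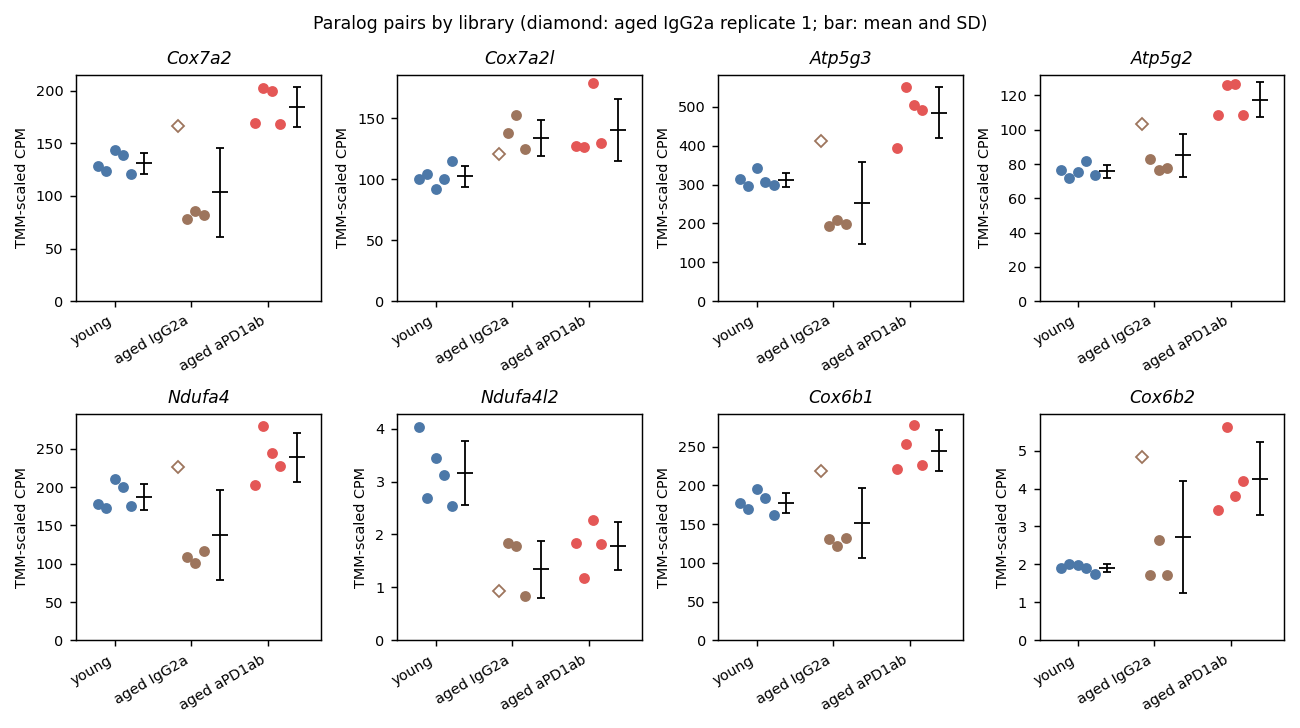
Levels of paralogous chain genes in every library (TMM-scaled CPM, axes from 0) for young, aged IgG2a and aged aPD1ab mice, with bars for the mean and SD and a diamond for aged IgG2a replicate 1. Cox7a2l is above the young range in all 8 aged libraries, and Cox7a2 is below it in aged IgG2a replicates 2 to 4 alone.

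The hypoxia-linked paralogs Ndufa4l2 and Cox4i2 were low and were called lower over young. Ndufa4l2 (ENSMUSG00000040280) was at 4.02, 2.69, 3.45, 3.12 and 2.54 CPM in young, 0.938, 1.84, 1.78 and 0.829 in aged IgG2a and 1.84, 1.18, 2.27 and 1.83 in aged aPD1ab libraries. Every aged library was below every young library. It fell by 1.16 in aged IgG2a (SE 0.30, edgeR adjusted p = 0.0299; -1.005 without replicate 1, edgeR adjusted p = 0.0165) and by 0.82 with aPD1ab over young (SE 0.24, edgeR adjusted p = 0.0327). The call in aged IgG2a was lost without young replicate 1, 2, 3 or 4 or aged IgG2a replicate 3 or 4, with log2 fold changes of -1.31 to -1.02. Cox4i2, the oxygen-sensitive form of subunit 4, had 37, 14, 23, 16 and 14 counts in young, 18, 6, 4 and 4 in aged IgG2a and 2, 10, 5 and 2 in aged aPD1ab libraries. It passed the filter on low counts only through the young libraries, where it was higher, so its calls are no support for a fall. The estimated fall was 1.96 with aPD1ab over young (SE 0.62, edgeR adjusted p = 0.0457) and 1.59 in aged IgG2a without replicate 1 (SE 0.56, edgeR adjusted p = 0.0376). With replicate 1 Cox4i2 was at -1.17 (edgeR adjusted p = 0.109). These counts sit near the floor of 3 counts, and 2 aged aPD1ab libraries were under it. Leaving out any 1 library left 0 or 1 of these 2 genes lower with aPD1ab over young, with 0 without young replicate 1, 3 or 4 or without aged aPD1ab replicate 1 or 4. Markers of mesangial cells, pericytes and smooth muscle moved in the same direction. The 10 of them summed to 367 to 524 CPM in young, 195 to 263 in aged IgG2a and 214 to 231 in aged aPD1ab libraries, and none was at 0 in any library. Against young, 6 of 10 fell in aged IgG2a (8.38% of all genes; 6 and 23.5% without replicate 1) and 6 with aPD1ab (9.97%). Their part in the values of Ndufa4l2 and Cox4i2 was not tested. Ndufa4l2 overlaps Shmt2, which has far more counts, by 32 bases on the opposite strand, and the strand setting of the counting is not stated.

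Other minor forms were called higher over young with aPD1ab. Cox6b2, known from testis, was at 1.91, 2.02, 1.98, 1.91 and 1.75 CPM in young, 4.84, 1.72, 2.64 and 1.73 in aged IgG2a and 3.44, 5.62, 3.80 and 4.19 in aged aPD1ab libraries, a rise of 1.16 over young (SE 0.19, edgeR adjusted p = 0.00474). Each aged aPD1ab library was above each young one, and of the aged IgG2a libraries replicate 1 lay within the aged aPD1ab range. The muscle form Cox6a2 was at 0.332, 0.305, 0.357, 0.269 and 0.224 CPM in young, 0.616, 0.573, 0.646 and 0.277 in aged IgG2a and 0.560, 0.651, 0.567 and 1.32 in aged aPD1ab libraries, near the floor. It passed the filter on low counts only through the aged aPD1ab libraries, where it was higher, so its call is no support for a rise. Its log2 fold change was 1.41 (SE 0.37, edgeR adjusted p = 0.0213). All 953 bases of Cox6a2 overlap Itgad, which has more counts, on the opposite strand. The strand setting is not stated, and which of the 2 genes its reads came from was not tested. In all, 37 of the 93 genes overlap another annotated gene. The call of Cox6a2 was lost without aged aPD1ab replicate 4 (1.00). The muscle form Cox7a1 rose by 0.66 over young with aPD1ab (edgeR adjusted p = 0.0447), a call lost in 7 of the 9 fits that left out 1 library (all but young replicate 4 and aged aPD1ab replicate 1), where it was at 0.50 to 0.70. The main forms Cox6b1 and Cox6a1 rose by 0.47 and 0.70.

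The level of proximal tubule markers differed between the groups along with the chain genes. The 20 markers, such as the phosphate transporter Slc34a1 and the endocytic receptors Lrp2 and Cubn, summed to 15560 to 23330 CPM in young libraries, 11610 in aged IgG2a replicate 1, 2196 to 3407 in aged IgG2a replicates 2 to 4 and 11370 to 31330 in aged aPD1ab libraries, with none at 0 in any library. In aged IgG2a against young 17 of 20 fell, where 8.38% of all genes did, and 20 without replicate 1, where 23.5% did. Over young with aPD1ab 0 of 20 passed in either direction, with a median of -0.10, where 12.4% of all genes rose and 9.97% fell. The 3 libraries with the fewest proximal tubule counts were those with the lowest chain levels. Markers of the thick ascending limb and distal tubule (6) summed to 5835 to 8456 CPM in young libraries and 12270 in aged IgG2a replicate 1. They stood at 5381 to 5835 in aged IgG2a replicates 2 to 4 and 5005 to 9260 in aged aPD1ab libraries. Collecting duct markers (7) were also higher in aged IgG2a replicate 1 (880 CPM) than in replicates 2 to 4 (436 to 521). The part of these 2 lists in the chain levels was not tested. In 3 of the 4 aged aPD1ab libraries the proximal tubule sum (11370, 12090 and 12570 CPM) was below every young library. Their chain genes summed to 15080, 16610 and 16140 CPM against 11870 to 13770 in young libraries.

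With the mean log2 level of these markers as a covariate, edgeR called 0 of 89 chain genes in aged IgG2a against young, where 0.263% of all genes were higher and 0.0439% lower, and the median turned to 0.50. In aged aPD1ab against aged IgG2a it called 0 of 89 and the median was 0.22. The marker score moves with the group in both of these comparisons, and the share of each in the chain levels cannot be told apart here. Over young with aPD1ab the same covariate left 78 of 90 chain genes higher and 2 lower, where 17.3% and 15.9% of all genes were, with a median of 0.55. Markers of macrophages were highest in the libraries with the lowest chain levels, from 1971 to 3558 CPM in young and 3173 in aged IgG2a replicate 1 to 7302 to 9304 in aged IgG2a replicates 2 to 4, and stood at 2362 to 5458 in aged aPD1ab libraries. In aged IgG2a against young 9 of 9 macrophage markers rose with replicate 1 (9.05% of all genes) and without it (22.1%). Their part in the chain levels was not tested.

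**Figure D5:**
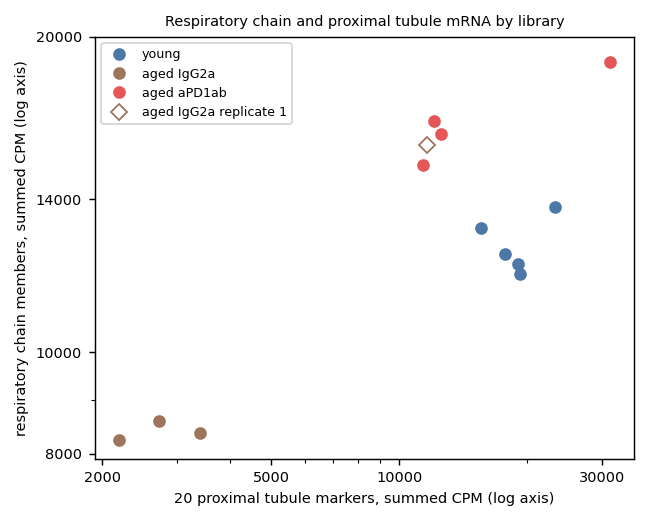
Summed level of the 93 chain genes (CPM, vertical log axis) against the summed level of 20 proximal tubule markers (CPM, horizontal log axis) in the 13 libraries, coloured by group, with a diamond for aged IgG2a replicate 1. Aged IgG2a replicates 2 to 4 lie at 2196 to 3407 CPM of tubule markers and 8249 to 8586 CPM of chain genes, and 3 aged aPD1ab libraries lie left of and above the young ones.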

How the data were processed

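The deposited table holds raw counts per gene, made by the authors with HISAT2 and featureCounts on mm10/GRCm38 according to the submitters' processing notes, whose versions and strand setting are not given in the sources used here. Of its 15 columns, 13 were tied to the 3 groups by the numbers on the study's plot of podocyte libraries, and 2 were not used. Replicates are separate mice. Symbols, lengths and coordinates came from GENCODE M21 (45229 of 46078 genes matched). Members, gene lists and tests were chosen with earlier results of these data known.

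Each comparison was fitted on its own groups over all genes that passed edgeR's filter on low counts, with TMM scaling and the quasi-likelihood test (edgeR 4.0.16 in R 4.3.3), and called at a Benjamini-Hochberg adjusted p under 0.05; fold changes are log2, with a prior count of 2 for log2 CPM. Alternatives were DESeq2 1.42.0, limma voom with sample quality weights (limma 3.58.1), RLE scaling, no filter, 1 fit of all 3 groups, no mitochondrially encoded genes, a 2-fold minimum, proximal tubule markers as a covariate, and each library left out. The procedure was tested on simulated data. TPM used median transcript lengths. Floors of 3 counts cover counting error only. Genes named were the 3 highest of each complex by TPM, complex II, catalytic subunits, isoform families, and the largest rises and falls of each comparison. Cox5a, Uqcrc2 and other members named beside a count were chosen after their values were seen. Some genes covered by this rule or these lists are not reported here by name.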

Additional observations from a re-analysis of the deposited data

Results flagged for a closer look

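In 35 of 126 sets of values, 1 library of a group of 4 or 5 lay farther from its nearest neighbour, relative to the range of the group, than Dixon's 95% critical value. Chance gives about 1 in 20 for a single set. These sets share libraries and hold genes that move together, so they are not independent and that rate is no measure for their count. Aged IgG2a replicate 1 was the library set apart in 31 of the 35, each time as the highest of its group. Its summed CPM was 3896 for complex I, 1296 for complex II, 1538 for complex III, 2379 for complex IV and 6647 for complex V, and the 93 genes took 1.64% of its counts. In complex I its CPM was 226 for Ndufa4, 86.0 for Ndufa6, 30.7 for Ndufaf4, 171 for Ndufb9, 184 for Ndufs1, 52.4 for Ndufs6 and 222 for Ndufv1. In complex II its CPM was 651 for Sdha, 249 for Sdhb, 177 for Sdhc and 218 for Sdhd. In complex III its CPM was 145 for Uqcr10, 118 for Uqcr11, 294 for Uqcrc1, 225 for Uqcrfs1 and 227 for Uqcrh. In complex IV its CPM was 430.2 for Cox4i1, 256 for Cox6a1, 219 for Cox6b1, 167 for Cox7a2 and 226 for Cox7b. In complex V its CPM was 1612 for Atp5a1, 2069 for Atp5b, 207 for Atp5g1 and 411 for Atp5g3. Aged aPD1ab replicate 2 stood apart in 2 genes, with 384 CPM for Cox6a1 and 282 for Ndufv1. Aged aPD1ab replicate 3 did so for Cox7a2l (179 CPM) and aged aPD1ab replicate 4 for Cox6a2 (1.32 CPM), each as the highest of its group.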

How the results depend on the processing

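Aged IgG2a replicate 1 decided the counts of both comparisons with aged IgG2a: leaving out 1 library gave 0 to 1 genes higher and 0 to 74 lower in aged IgG2a against young, and 0 to 83 higher in aged aPD1ab against aged IgG2a, where 74 and 83 are without that library. Against young with aPD1ab, 0 to 1 genes were then lower. Of the values recomputed for single genes, 1352 kept their direction and side of the threshold, 160 gained a call, 81 lost one and 68 turned in sign. No paired analysis was possible because the columns carry no shared replicate numbers. The cause of the differences below was not tested.

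In 1 fit of all 3 groups, 0 genes were higher in aged IgG2a against young and Cox8a was at -0.035, 65 were higher with aPD1ab against aged IgG2a, and against young 32 were higher and 1 lower, with Ndufs1 at -0.0070. DESeq2 called 56 genes higher with aPD1ab against aged IgG2a and put Ndufs1 at -0.0032 against young, where RLE scaling gave -0.0031. Limma voom called 70 lower in aged IgG2a against young, with Cox8a at -0.23, and 83 higher with aPD1ab against aged IgG2a, with regulators at a median of 0.14 and Cox7a2l at -0.048; against young Ndufaf4 was at 0.020. Without a filter, 0 genes were higher in aged IgG2a against young and Cox8a was at -0.011, and 0 were lower with aPD1ab against young, with Ndufs1 at -0.0076. With a 2-fold change also required, 0 genes were higher in aged IgG2a against young, and 2 higher and 1 lower with aPD1ab against young.

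On sums of TPM, the log2 ratios of complexes I to V in aged IgG2a against young were -0.86, -0.96, -0.88, -0.77 and -0.90, and with aPD1ab against young 0.27 (I), 0.057 (II), 0.35 (IV) and 0.18 (V). With union exon lengths, chosen after seeing the data, they were -0.98, -1.07, -1.04, -0.87 and -1.04, then 0.28 (I), 0.056 (II), 0.36 (IV) and 0.13 (V), and with aPD1ab against aged IgG2a 1.26 (I), 1.33 (III) and 1.24 (IV).

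With proximal tubule markers as a covariate, 0 genes were higher and 0 lower in aged IgG2a against young and the median was 0.50, with 0.49 for cytochrome c and subunits outside the rule (Minos1 included), 0.26 for assembly factors, 0.42 for the TCA cycle and 0.39 for other mitochondrial proteins. Complex I genes were then at 0.46 (Ndufa4), 0.42 (Ndufa6), 0.29 (Ndufaf4), 0.28 (Ndufb2), 0.61 (Ndufb9), 0.38 (Ndufs1), 0.41 (Ndufs6) and 0.43 (Ndufv1), and complex II at 0.38 (Sdha), 0.65 (Sdhb), 0.46 (Sdhc) and 0.56 (Sdhd). Complex III genes were at 0.57 (Uqcr10), 0.49 (Uqcr11), 0.41 (Uqcrc1), 0.45 (Uqcrfs1) and 0.56 (Uqcrh). Complex IV genes were at 0.515 (Cox4i1), 0.61 (Cox6a1), 0.44 (Cox6b1), 0.21 (Cox7a1), 0.57 (Cox7a2) and 0.62 (Cox7b), and complex V at 0.42 (Atp5a1), 0.43 (Atp5b), 0.77 (Atp5g1), 0.64 (Atp5g3) and 0.37 (Atp5s). With aPD1ab against aged IgG2a the median was 0.22, with the TCA cycle at -0.073, Atp5a1 at -0.013, Atp5b at -0.040, Atp5s at -0.31, Cox6b2 at -0.30, Ndufaf4 at -0.050, Ndufb2 at -0.25, Ndufs1 at -0.069 and Sdha at -0.13. Against young, Ndufaf4 was at 0.037 and Ndufb2 at 0.0024.

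With 1 library left out, aged IgG2a against young ran from -0.23 to 0.050 for Atp5s, from -0.24 to 0.13 for Cox8a and from -0.27 to 0.019 for Uqcrh. With aPD1ab against aged IgG2a, regulators ran from -0.19 to 0.15 and Cox7a2l from -0.075 to 0.14. Against young, regulators ran from -0.028 to 0.11, Atp5s from -0.0093 to 0.21, Ndufaf4 from -0.085 to 0.075, Ndufb2 from -0.16 to 0.00091, Ndufs1 from -0.044 to 0.054 and Sdha from -0.042 to 0.062.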

Other observations

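Mitochondrial genes outside the respiratory chain were measured in the same fits. Of 14 genes of the TCA cycle, 0 passed edgeR's test in aged IgG2a against young, where 9.05% of all genes were higher and 8.38% lower. Without aged IgG2a replicate 1 all 14 fell (median -0.67), where 23.5% of all genes fell. Among them were the succinyl-CoA ligase subunits Suclg2 and Suclg1, by 0.95 and 0.92. Over young with aPD1ab, 1 of 14 rose (12.4% of all genes), the malate dehydrogenase Mdh2, by 0.43, and the median was 0.18. Against aged IgG2a, 0 of 14 passed with aPD1ab (0% of all genes). Without replicate 1 all 14 rose (median 0.87), where 17.1% of all genes rose. Of 14 other abundant mitochondrial proteins, 10 rose over young with aPD1ab (median 0.45, 12.4% of all genes), such as the prohibitin Phb2 (0.63) and the import receptor Tomm20 (0.60). In aged IgG2a against young, Tomm22 alone passed (higher, 0.25), where 9.05% of all genes were higher. Without replicate 1, 6 of these fell (23.5% of all genes), with the chaperone Hspd1 at -1.05 and the outer membrane channel Vdac1 at -0.81. Tomm22 then rose by 0.23, where 22.1% of all genes rose.

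Few regulators of mitochondrial gene expression were called, beside the shares of all genes. Of 12 tested, Esrra, a nuclear receptor of energy metabolism, rose by 0.56 over young with aPD1ab and Gabpa fell by 0.54. Of all genes, 12.4% rose and 9.97% fell there. In aged IgG2a against young 0 passed, where 9.05% of all genes were higher and 8.38% lower. Without replicate 1, Nrf1 rose by 0.46 in aged IgG2a, where 22.1% of all genes rose. The coactivator Ppargc1a and the mitochondrial transcription factor Tfb2m then fell by 0.66 and 0.44, where 23.5% of all genes fell.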
